A study of Mus musculus with 10 samples.

Results

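The genes described here are 10 genes of the piRNA pathway and its Tudor domain proteins, Mael, Tdrd1, Tdrd5, Tdrd7, Tdrd9, Piwil2, Piwil4, Mov10l1, Asz1 and Rnf17. They were chosen by symbol, with earlier results of these data known. Every probe set annotated to one of these symbols alone was taken, which gave 16 of the 45037 probe sets that are not controls and 10 of the 18193 genes with a single symbol. The study followed the mouse embryonic ovary on Affymetrix Mouse430_2 arrays, at 5 stages with 2 arrays each. These were E11.5 and E12.5, then E14.5 and E16.5, and last E18.5, in days of embryonic development. Trizol was used to extract RNA from whole ovaries, and the labels call the preparations independent. The labels name no strain, genotype or treatment and do not say how many embryos a preparation held. Each array reads the RNA of all cells of the organ together, so that fewer cells of a type and less RNA per cell cannot be told apart.

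piRNAs are small RNAs of the germ line that guide PIWI-family Argonaute proteins to transposon transcripts and, in the nucleus of male germ cells, to the transposon copies themselves. Tudor domains bind methylated arginines at the ends of PIWI proteins and gather the pathway in cytoplasmic granules called nuage, beside mitochondria. In mice the pathway is best known from the testis, where loss of many of its genes releases transposons and stops sperm formation, while female mutants of most of them are fertile. Oocytes of the fetal ovary enter meiosis in the middle of the period sampled and reach the arrested stage of meiotic prophase toward birth.

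Signals are given on a linear scale after each array was brought to a common 75th percentile of 142, and the level of 27 unspiked control probe sets (their 95th percentile on the same array) served as the background. That background lay between 19.5 and 33.0 on 9 arrays and at 152 on E12.5 replicate 2. E12.5 replicate 2 correlated with the others at 0.418 to 0.470, against 0.873 to 0.964 among the other 9, and was left out. E12.5 replicate 1 had an Actb 3′ to 5′ signal ratio of 10.6, and 8 arrays from other stages had 1.51 to 2.22, so that E12.5 is given as 1 value with no test. The number of arrays, 2 per stage, limits the precision. By the hybridize date in the experiment files, E11.5 and E12.5 were in run 1, E14.5 and E16.5 in run 2 and E18.5 in run 3. Run and stage thus cannot be told apart except for E16.5 against E14.5. Of 6 germ cell markers, the summed signal was 1377 to 1693 at E11.5, 5193 to 5289 at E14.5, 2134 to 2776 at E16.5 and 5924 to 6161 at E18.5, and 5, 6, 5 and 5 of them lay above the background on both arrays. The 4 meiotic markers summed to 89.7 and 101 at E11.5 and to 3943 to 5372 at the later stages. They did not move together after E14.5. Stra8 fell from 1604 and 1203 at E14.5 to 104 and 126 at E18.5, and Rec8 from 205 and 240 to 33.8 and 48.2. Sycp1 rose from 699 and 624 to 2098 and 2196, and Sycp3 stayed between 1960 and 3002. All 7 pregranulosa and ovarian somatic markers were above the background on every array of these 4 stages, while Amh, a hormone of testis Sertoli cells, was not above it on any of them.

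Nearly the whole group gained signal over the period, in more than one time pattern. Between E11.5 and E18.5, 9 of the 10 genes rose, against 13.4% of the 13287 genes tested by limma. Their log2 changes ran from 1.52 ± 0.21 for Rnf17 to 5.22 ± 0.21 for Mael (± SE, 2 arrays per stage). Piwil4 stayed too close to the background to be tested. On the log2 scale, Mael, Rnf17 and Tdrd7 made most of their gain by E14.5 or E16.5. Tdrd1 and Tdrd9, in contrast, were near or below the background until E14.5 and reached their high signals at E18.5. Piwil2 and Mov10l1 rose both before E14.5 and after E16.5, as did Asz1 on its probe set 1422402_a_at. For each of these genes a step missed the threshold when certain single arrays were left out.

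**Figure D1:**
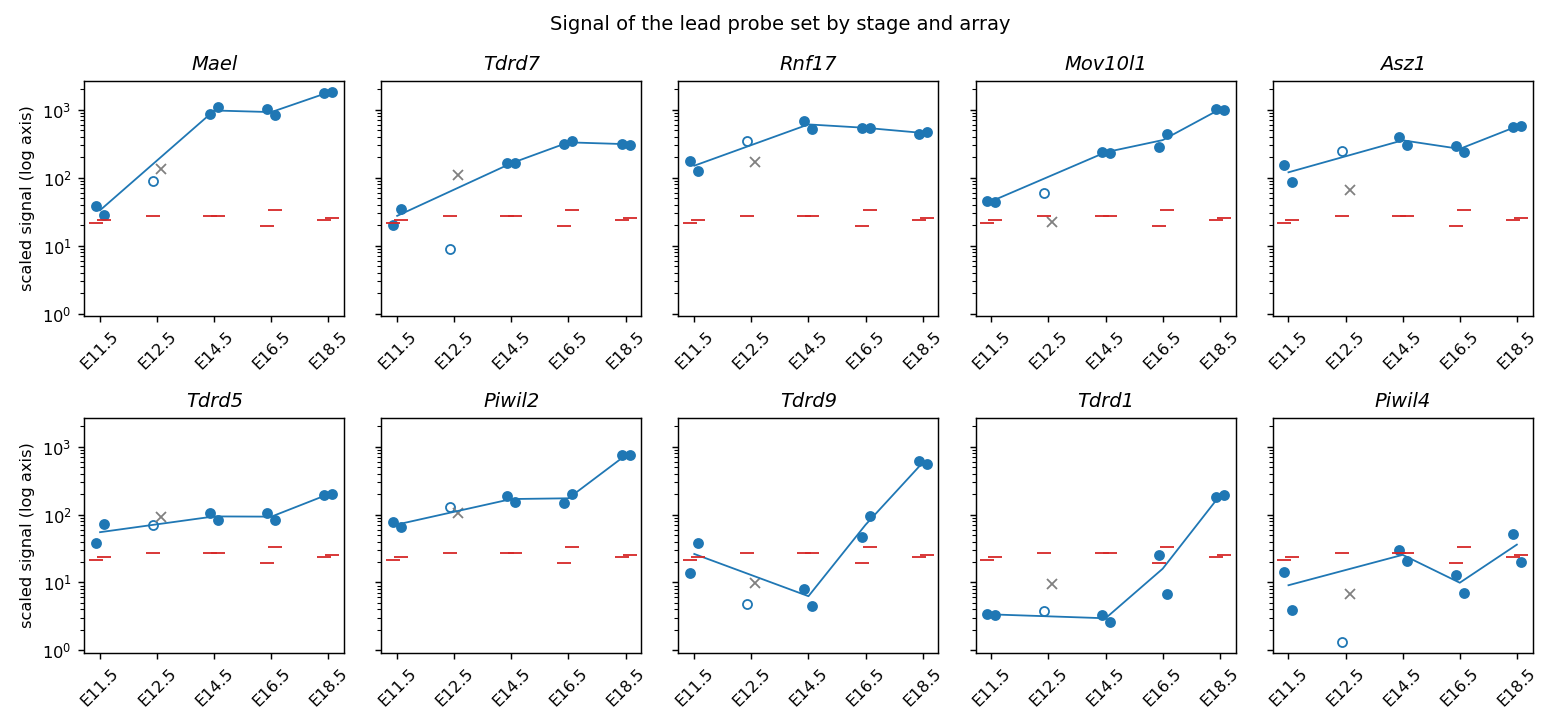
Scaled signal (log axis, arbitrary units) of the lead probe set of each of the 10 genes by stage. Filled circles are single arrays, open circles E12.5 replicate 1, grey crosses E12.5 replicate 2, and blue lines join the means of the 4 stages with 2 arrays used. Red dashes mark the background of each array except E12.5 replicate 2. Mael reaches 871 and 1091 by E14.5, Tdrd9 only 8.04 and 4.49 there before 604 and 554 at E18.5, and Piwil4 stays around the dashes.

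The sequences upstream of the starts are shown for the genes whose window held the hexamer CACGTG, a palindrome known as an E-box, which reads the same on both strands and is bound by proteins of the MYC, MAX and USF kind. RefSeq windows (GRCm38.p6, 250 bases before to 50 after a start) were at hand for 8 of the 10 genes, with 13 windows in all. The hexamer lay in the windows of 4 of these 8 genes, and in those of 8.09% of all 27025 genes with a window. Per window it was 5 of 13, against 7.15% of 32851 windows and 10.9% of the 14281 windows with 10 or more CpG. Mael held it at position −223 from the start, Tdrd1 at −11, Tdrd9 at −165 and again at −95, and Mov10l1 at −246, counted to the first base of the hexamer. A second Tdrd1 window, from a start a little downstream, holds the same copy at −77. The 250 bases before the start are printed 5′ to 3′ on the strand of the gene, with each CACGTG in capitals.
Mael, chr1:166238745-166238994, minus strand: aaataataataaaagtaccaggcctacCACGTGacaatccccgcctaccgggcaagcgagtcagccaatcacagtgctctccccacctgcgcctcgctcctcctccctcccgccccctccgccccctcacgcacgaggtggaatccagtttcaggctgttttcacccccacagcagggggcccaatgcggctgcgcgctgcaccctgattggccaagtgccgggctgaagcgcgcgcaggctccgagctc
Tdrd1, chr19:56825959-56826208, plus strand: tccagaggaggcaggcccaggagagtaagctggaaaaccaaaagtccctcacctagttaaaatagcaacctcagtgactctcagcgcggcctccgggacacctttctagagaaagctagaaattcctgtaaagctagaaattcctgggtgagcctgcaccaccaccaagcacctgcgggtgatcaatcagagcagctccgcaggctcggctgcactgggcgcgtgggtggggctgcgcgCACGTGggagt
Tdrd9, chr12:111971309-111971558, plus strand: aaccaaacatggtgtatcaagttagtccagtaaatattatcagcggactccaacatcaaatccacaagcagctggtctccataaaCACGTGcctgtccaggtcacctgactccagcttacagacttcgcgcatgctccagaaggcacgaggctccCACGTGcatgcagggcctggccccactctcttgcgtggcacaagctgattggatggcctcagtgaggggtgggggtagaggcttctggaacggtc
Mov10l1, chr15:88982744-88982993, plus strand: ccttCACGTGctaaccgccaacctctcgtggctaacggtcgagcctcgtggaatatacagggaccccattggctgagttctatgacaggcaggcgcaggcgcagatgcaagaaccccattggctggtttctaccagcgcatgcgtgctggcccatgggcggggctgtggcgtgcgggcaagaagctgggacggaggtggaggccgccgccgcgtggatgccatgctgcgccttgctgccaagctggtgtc

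A match of letters is a description of these windows and not a bound site. The 4 genes with the hexamer did not share a time pattern, since Mael had its largest step by E14.5 and Tdrd1 and Tdrd9 after it, and Asz1, Tdrd5, Tdrd7 and Piwil4 had no copy in their windows. In the same search, the windows of 6 of 15 other piRNA pathway genes held it (Piwil1, Ddx4, Stk31, Pld6, Wdr77 and Dnmt3l), those of 0 of 7 Tudor domain and helicase genes used outside the germ line, and those of 0 of 8 microRNA pathway genes. The letters GCGGGAA, of the kind bound by E2F factors, were searched on both strands and lay only in the Tdrd5 window among the members, against 4.60% of all windows. CpG counts ran from 0 in the second Piwil4 window to 48 in that of Tdrd5, with 24 for Mael and 20 for Mov10l1, against a median of 7 and a 75th percentile of 20 over all windows.

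**Figure D2:**
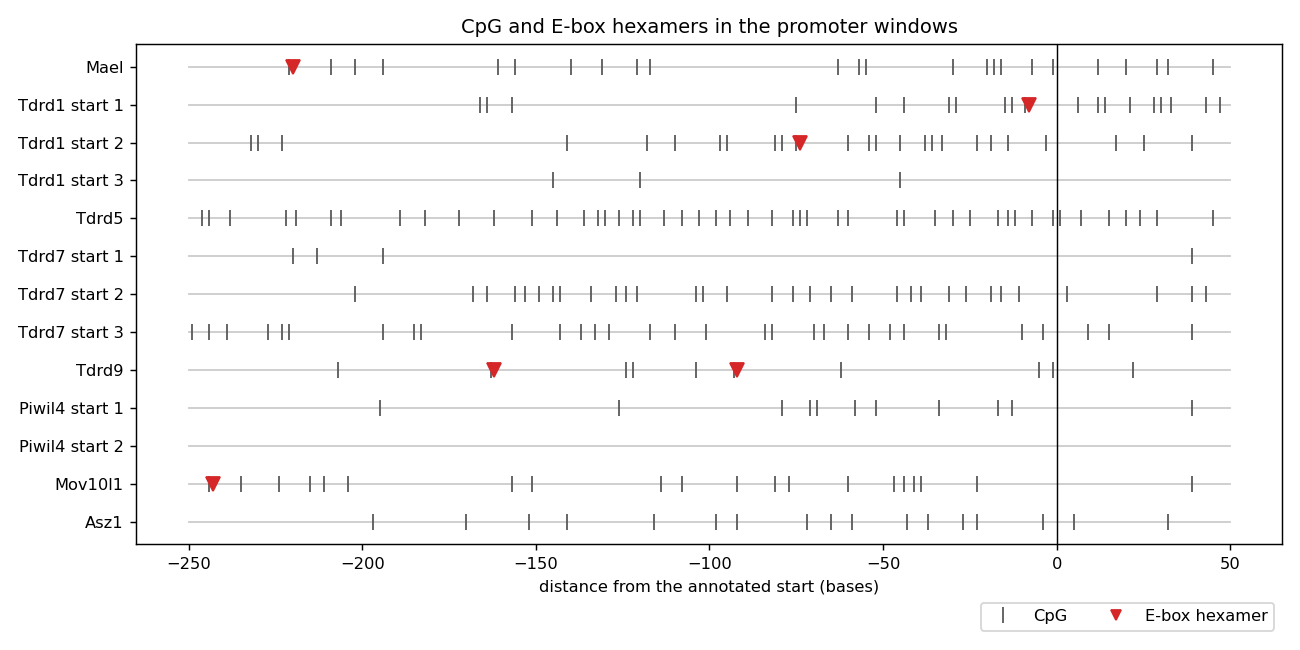
Positions of CpG (black ticks) and of the E-box hexamer (red triangles) along the 13 promoter windows of 8 genes, in bases from the annotated start (vertical line). The hexamer appears in the windows of Mael, Tdrd1, Tdrd9 and Mov10l1, with 2 copies in that of Tdrd9, and the second Piwil4 window holds no CpG.

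Of the PIWI proteins themselves, Piwil2 (MILI), which cuts transposon RNA in the cytoplasm and starts piRNA amplification, was above the background throughout. Its probe set 1449170_at had a signal of 77.5 and 65.0 at E11.5, 129 at E12.5, 187 and 151 at E14.5, 149 and 197 at E16.5, and 745 and 744 at E18.5. The E18.5 arrays stood far above all others, those of E14.5 and E16.5 overlapped, and the E11.5 arrays were the lowest. In limma, E18.5 exceeded E16.5 by 2.02 ± 0.22 on the log2 scale (adjusted p = 6.53e-04) and E11.5 by 3.13 ± 0.22 (adjusted p = 8.48e-07). The earlier gain, E14.5 over E11.5, was 1.08 ± 0.22 (adjusted p = 0.0114), and this one depended on single arrays, with an adjusted p of 0.0532 without E11.5 replicate 2 and of 0.123 without E14.5 replicate 1.

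Piwil4 (MIWI2), the nuclear PIWI protein that directs DNA methylation of transposons in fetal male germ cells, was hardly detected. Its lead probe set 1447564_x_at had a signal of 14.2 and 3.94 at E11.5, 1.32 at E12.5, 29.9 and 21.0 at E14.5, 12.8 and 6.997 at E16.5, and 52.0 and 20.0 at E18.5, and lay above the background on 1 of 2 arrays at E14.5 and 1 of 2 at E18.5. The other probe set, 1439716_at, exceeded the background on a single array, E18.5 replicate 2, at 27.3. Neither probe set passed the filter on low values. Fitted with no filter, the lead probe set differed between E18.5 and E11.5 by 1.01 ± 0.38 on the log2 scale in limma (adjusted p = 0.109). Dnmt3l, a cofactor of the DNA methyltransferases, and Piwil1 (MIWI), the PIWI protein of later sperm formation, were chosen after their values were seen and were not tested either. Piwil1 lay between 2.41 and 9.66 on the 9 arrays, below the background on each. Dnmt3l was above it at E14.5 (42.7 and 27.9), on E12.5 replicate 1 (32.2) and on E18.5 replicate 1 (48.0). On the other arrays used Dnmt3l was not above it.

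Mov10l1, the RNA helicase that feeds piRNA precursors into processing, rose early and again late. Probe set 1419340_at had a signal of 46.1 and 44.2 at E11.5, 59.7 at E12.5, 241 and 235 at E14.5, 284 and 434 at E16.5, and 1037 and 1003 at E18.5. No stage overlapped the next, and the replicates lay close together except at E16.5. By limma the log2 change was 2.05 ± 0.22 for E14.5 against E11.5 (adjusted p = 8.69e-05) and 4.08 ± 0.22 for E18.5 against E11.5 (adjusted p = 8.92e-08). For E16.5 against E14.5, within a single run, it was 0.53 ± 0.22 and did not pass (adjusted p = 0.204). The late gain of 1.50 ± 0.22, E18.5 against E16.5, passed with an adjusted p of 0.00595 but missed the threshold when an array was left out, at 0.101 without E16.5 replicate 1, 0.0936 without E18.5 replicate 1 and 0.0752 without E18.5 replicate 2. Its relative Mov10, a helicase that the soma also uses, had a log2 change of 0.34 ± 0.22 for E18.5 against E11.5 (limma adjusted p = 0.274).

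The Tudor proteins differed most among themselves. Tdrd1, a scaffold of the nuage that binds MILI, was far above the background at E18.5 and at no earlier stage. Probe set 1421513_at gave 3.44 and 3.32 at E11.5, 3.83 at E12.5, 3.32 and 2.61 at E14.5, 25.0 and 6.80 at E16.5, and 184 and 195 at E18.5. Both E18.5 arrays were far above every other, and among the 6 arrays of the 3 earlier tested stages only E16.5 replicate 1 exceeded its background. E18.5 was at least 8.42-fold above E11.5 (limma adjusted p = 3.51e-04), a lower bound, since it was computed against the background of the E11.5 arrays. E18.5 exceeded E16.5 by 2.75 ± 0.50 on the log2 scale (adjusted p = 0.0224), but this call was lost without E16.5 replicate 1 (adjusted p = 0.102), without E16.5 replicate 2 (0.104) and with 1 in place of 16 added before the log2 (0.306). Tdrd1 passed the filter through its E18.5 arrays alone.

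Tdrd9, a helicase with a Tudor domain that acts with MIWI2 in the male germ line, was also late. The signal of 1453357_at was 13.9 and 38.6 at E11.5, 4.79 at E12.5, 8.04 and 4.49 at E14.5, 46.8 and 94.3 at E16.5, and 604 and 554 at E18.5. It was not above the background at E14.5 and above it on 1 of 2 arrays at E11.5, and the groups from E14.5 to E18.5 did not overlap. E16.5 was at least 2.43-fold above E14.5 (limma adjusted p = 0.0195), and E18.5 exceeded E16.5 by 2.84 ± 0.37 on the log2 scale (adjusted p = 0.00248) and E11.5 by 3.88 ± 0.37 (adjusted p = 1.14e-05). The first of these missed the threshold in 5 of the fits without 1 array, with an adjusted p of 0.0615 and 0.119 without E14.5 replicate 1 and 2, 0.217 without E16.5 replicate 2, and 0.0513 and 0.0503 without E18.5 replicate 1 and 2. The gain after E16.5 missed it without E16.5 replicate 1 (0.0579) and without E18.5 replicate 1 (0.0703).

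Tdrd7, a component of nuage in germ cells that the lens also uses, rose early and levelled off. Probe set 1426716_at had a signal of 20.4 and 34.6 at E11.5, 8.98 at E12.5, 162 and 165 at E14.5, 320 and 346 at E16.5, and 319 and 308 at E18.5. The E14.5 arrays lay above both E11.5 arrays, of which 1 was above the background, and the E16.5 arrays lay above those of E14.5, while E18.5 replicates were just below those of E16.5. The log2 change was 2.07 ± 0.23 for E14.5 against E11.5 (limma adjusted p = 1.17e-04), 0.95 ± 0.23 for E16.5 against E14.5 (0.0439) and -0.08 ± 0.23 for E18.5 against E16.5 (0.912). The middle step is the least certain, since leaving out any one array of E14.5, E16.5 or E18.5 gave an adjusted p of 0.0757 to 0.254. A second probe set, 1459216_at, was at background on all 9 arrays and was not tested, so the gene rests on 1 probe set.

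Tdrd5, needed in mice for nuage assembly and transposon silencing in sperm precursors, changed less. Signals of 1456391_at were 37.9 and 72.0 at E11.5, 69.1 at E12.5, 105 and 82.4 at E14.5, 104 and 81.8 at E16.5, and 194 and 204 at E18.5. The E14.5 and E16.5 arrays interleaved, and both E18.5 arrays were higher. E18.5 exceeded E11.5 by 1.64 ± 0.28 on the log2 scale (limma adjusted p = 9.10e-04). None of the steps passed, the last one being 0.99 ± 0.28 (E18.5 against E16.5, adjusted p = 0.153).

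Rnf17, a Tudor protein that in mouse testis keeps secondary piRNAs in check, rose early on 4 probe sets. The lead probe set 1438820_at had a signal of 174 and 127 at E11.5, 347 at E12.5, 697 and 526 at E14.5, 548 and 541 at E16.5, and 440 and 476 at E18.5. All later arrays were above the E11.5 arrays, and the E18.5 arrays were the lowest of the 3 later stages. Its log2 change was 1.91 ± 0.21 for E14.5 against E11.5 (limma adjusted p = 1.08e-04) and -0.24 ± 0.21 for E18.5 against E16.5 (0.675). Over the same early step the other probe sets changed by 1.39 ± 0.22 (1425709_at), 1.60 ± 0.24 (1425708_at) and 2.13 ± 0.23 (1459275_at), all past the test. They disagreed afterwards, because 1459275_at went on to 398 and 336 at E18.5, against 221 and 263 at E16.5 and 25.1 and 29.8 at E11.5, and its change of 3.14 ± 0.23 for E18.5 against E11.5 was larger than the 1.16 to 1.52 of the other 3.

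Mael (Maelstrom), a nuage and nuclear protein required for transposon silencing and meiosis in male mice, had the largest fitted change of the 9 tested genes. Probe set 1436837_at gave a signal of 38.7 and 27.9 at E11.5, 88.6 at E12.5, 871 and 1091 at E14.5, 1019 and 839 at E16.5, and 1768 and 1853 at E18.5. The groups at E11.5 and E14.5 were far apart, those at E14.5 and E16.5 overlapped, and E18.5 stood above both. E14.5 exceeded E11.5 by 4.34 ± 0.21 on the log2 scale (limma adjusted p = 5.46e-08), and E18.5 exceeded E11.5 by 5.22 ± 0.21 (adjusted p = 5.79e-09). The difference between E18.5 and E16.5, 0.96 ± 0.21, just missed the threshold (adjusted p = 0.0522) and passed it in 7 of the other settings, with adjusted p between 0.0259 and 0.0475.

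Asz1 (GASZ), which anchors nuage to mitochondria, was seen by a pair of probe sets. The lead, 1424939_at, gave 155 and 86.0 at E11.5, 248 at E12.5, 406 and 308 at E14.5, 290 and 244 at E16.5, and 560 and 584 at E18.5. The other, 1422402_a_at, gave 79.2 and 107 at E11.5, 69.9 at E12.5, 282 and 226 at E14.5, 245 and 295 at E16.5, and 747 and 753 at E18.5. On both, the E18.5 arrays were the highest and those of E11.5 the lowest of the 4 tested stages. The lead changed by 1.48 ± 0.25 on the log2 scale for E14.5 against E11.5 (limma adjusted p = 0.00351, but 0.0611 without E14.5 replicate 1) and by 2.15 ± 0.25 for E18.5 against E11.5 (adjusted p = 5.90e-05). The probe sets split on E18.5 against E16.5, with 1.06 ± 0.25 on the lead (adjusted p = 0.0815) and 1.43 ± 0.22 on the other (adjusted p = 0.00669). The lead passed without E11.5 replicate 1 (0.0245) or replicate 2 (0.0240), and the other missed the threshold without E16.5 replicate 1 (0.114), E18.5 replicate 1 (0.0940) or E18.5 replicate 2 (0.0872).

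**Figure D3:**
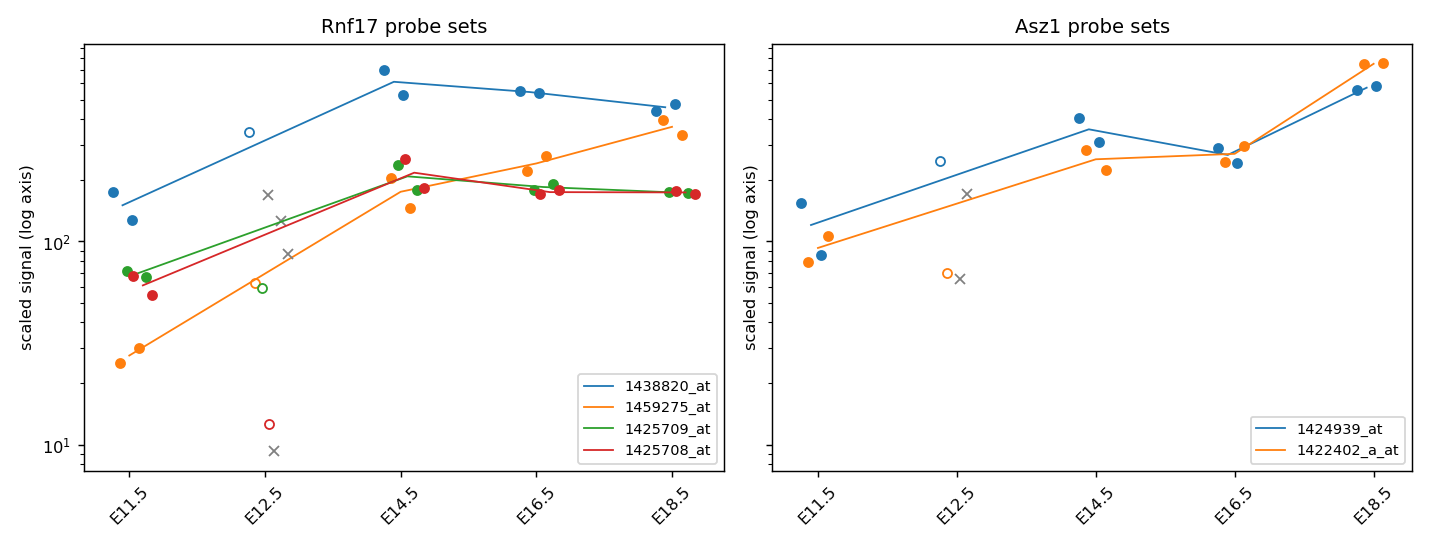
Scaled signal (log axis, arbitrary units) by stage for Rnf17 and Asz1, which have more than 1 tested probe set, in 1 colour per probe set. Filled circles are single arrays, open circles E12.5 replicate 1, grey crosses E12.5 replicate 2, and lines join the means of the 4 stages with 2 arrays used. The Rnf17 probe sets rise together by E14.5 and 1459275_at goes on to 398 and 336 at E18.5.

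Counted by comparison, the lead probe sets moved mainly in the first and the last interval. Both of these intervals compare arrays from different runs, while the middle one lies within run 2. An effect of run on these counts was not tested. E14.5 exceeded E11.5 for 6 of the 9 tested genes (Mael, Tdrd7, Piwil2, Mov10l1, Asz1 and Rnf17), against 3.51% of the 13287 genes tested, and was lower for 0 of 9 (2.12% of genes) by limma, with 1 lower at an unadjusted p under 0.05 (Tdrd9). E16.5 exceeded E14.5 for 2 of 9 (Tdrd7 and Tdrd9), against 1.20% of genes. E18.5 exceeded E16.5 for 4 of 9 (Tdrd1, Tdrd9, Piwil2 and Mov10l1), against 0.866%. For E18.5 against E11.5, 9 of 9 were higher, against 13.4%, and the F test over the 4 stages passed for 9 of 9, against 28.1%. By limma none of the 9 was lower at an adjusted or an unadjusted p under 0.05 for E16.5 against E14.5 (2.63% of genes lower at the adjusted p), E18.5 against E16.5 (0.278%) or E18.5 against E11.5 (16.6%). Since the members were chosen with earlier results of these data known, the shares describe them and are no test of the group.

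A filter that asks for signal on at least 2 arrays lets a gene such as Tdrd1 in because it is high at one stage, so the counts were also taken over all 10 genes with no filter. They were 6 of 10 for E14.5 against E11.5 (1.87% of 18193 genes), 0 of 10 for E16.5 against E14.5 (0.302%, with 3 of 10 higher at an unadjusted p under 0.05), 4 of 10 for E18.5 against E16.5 (0.456%) and 9 of 10 for E18.5 against E11.5 (8.43%). The median log2 changes of the 10 in these comparisons were 1.28, 0.01, 1.02 and 3.03, against -0.01, -0.03, 0.03 and 0.05 over all genes. The comparisons share arrays and are not independent of each other. The summed hepatocyte markers, at 2909 and 3238 at E18.5, 483 and 780 at E16.5 and 1210 and 3155 at E14.5, were above the 63.9 and 64.3 of E11.5, as the germ cell marker sums were. The pregranulosa and ovarian somatic markers summed to 3181 and 3387 at E18.5 and 2837 and 3014 at E14.5, against 1872 and 2747 at E11.5. By limma for E18.5 against E11.5, Foxl2, Fst and Irx3 were higher, Nr5a1 was lower and Wnt4, Rspo1 and Gata4 did not pass. The median log2 change of the 7 markers was -0.03. The erythroid sum ran the other way, at 1063 and 1065 at E18.5, against 22218 and 29287 at E11.5. By limma Hba-x, Hbb-bh1 and Hbb-y were lower at E18.5, but Alas2 was higher (0.83 ± 0.20, adjusted p = 0.00954). The endothelial sum was also lower, at 385 and 425 at E18.5 and 323 and 459 at E14.5, against 692 and 916 at E11.5, with Cdh5 and Emcn past the test and Pecam1 and Kdr not. Of the germ cell sum at E18.5, Dppa3 alone gave 3417 and 3223. Pou5f1 went against that sum (-2.56 ± 0.49, limma adjusted p = 0.00199). The part of these cell types in the changes of the members was not tested.

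**Figure D4:**
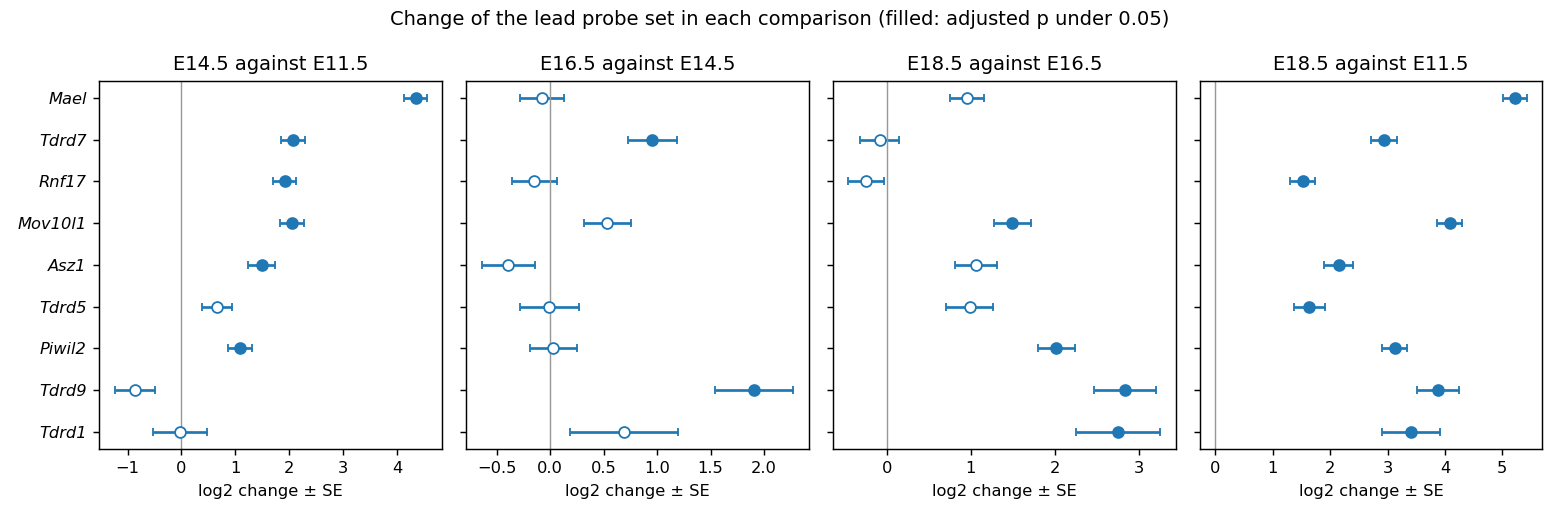
Log2 change ± SE of the lead probe set of the 9 tested genes in each comparison, from limma on 9 arrays. Filled symbols have an adjusted p under 0.05, the grey line marks no change, and the horizontal scale differs between panels. Mael, Tdrd7, Rnf17 and Mov10l1 lead at E14.5 against E11.5, and Tdrd9, Tdrd1, Piwil2 and Mov10l1 at E18.5 against E16.5.

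The sizes of these steps were set side by side in a contrast added after the values had been seen, the late step (E18.5 against E16.5) minus the early one (E14.5 against E11.5). It uses the same arrays on which the time patterns were noticed and is no independent evidence of them. Each step also spans a change of run, and an effect of run on the contrast was not tested. By limma it was above 0 for Tdrd9 (3.70 ± 0.52, adjusted p = 0.00140), against 1.08% of genes. It was below 0 for Mael (-3.38 ± 0.29, 2.31e-05), Tdrd7 (-2.15 ± 0.33, 0.00258) and Rnf17 (-2.16 ± 0.30, 0.00130), against 1.85% of genes. Each of these 4 stayed past the threshold in every fit that left out 1 array, and none did with all 10 arrays (adjusted p of 0.105 for Tdrd9, 0.130 for Mael, 0.760 for Rnf17 and 1.00 for Tdrd7). Tdrd1 had 2.78 ± 0.71 (adjusted p = 0.0620), and passed with 64 added before the log2 (0.00405), with no filter (0.0319) and in the fit on gene means (0.0493). For Piwil2 (0.94 ± 0.31, 0.144, but 0.0475 with 64 added), Tdrd5 (0.32 ± 0.39, 0.742), Asz1 (-0.42 ± 0.35, 0.604) and Mov10l1 (-0.56 ± 0.31, 0.410) the steps did not differ past the threshold. The early step of Tdrd9 rests on E14.5 signals that were not above the background, and that of Tdrd1 on signals not above it at E11.5 or E14.5, so neither early step is a measured difference.

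As a measure of likeness, Pearson correlations of log2 signal were taken over the 8 arrays of the 4 tested stages, whose points share arrays, scaling and the change of cell makeup with age. Among the 9 tested genes they ran from 0.132 (Tdrd9 with Rnf17) to 0.945 (Piwil2 with Mov10l1, and likewise Mael with Tdrd7). Tdrd1 and Tdrd9 had 0.934 with each other, and Tdrd1 had 0.237 with Rnf17. Apart from E16.5 replicate 1, Tdrd1 was above the background on the E18.5 arrays alone. Its correlations thus mainly reflect a high signal at E18.5 and say little about likeness at the earlier stages. Over 13286 other genes, the closest to Mael were Taf7l (0.995), Tex11 (0.992) and Sycp3 (0.989). The closest to Tdrd7 were Sycp1 (0.995), Trim7 (0.993) and Fhl4 (0.990). Of these, Sycp1 and Sycp3 encode proteins of the synaptonemal complex. Spdya (0.990), Tex14 (0.988) and Sycp2 (0.984) were the closest to Rnf17. Those nearest Tdrd1 were Sohlh1 (0.981), Cnpy1 (0.979) and Lhx8 (0.979), of which Sohlh1 and Lhx8 encode transcription factors of oocytes, and those nearest Tdrd9 were Pramel13 (0.985), Adad2 (0.985) and Commd3 (0.982). For Piwil2 they were Fam71e1 (0.991) and Vps13a (0.990), for Mov10l1 Pcgf5 (0.991) and Ermp1 (0.990), for Asz1 Glb1l2 (0.991) and Lpin1 (0.982), and for Tdrd5 E430016F16Rik (0.992) and Klf9 (0.983).

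Other genes of the pathway were taken from a list of 22, of which 19 were found by symbol and 16 tested. E14.5 exceeded E11.5 for 8 of the 16, against 3.51% of all genes tested. E18.5 exceeded E11.5 for 11 of the 16 (10 with no filter), against 13.4%, and was lower for 2 (Wdr77 and Morc1), against 16.6%. Their median change for E18.5 against E11.5 was 1.33 on the log2 scale over those 16, and 1.07 over all 19 with no filter. The middle interval had 1 lower gene of the 16, Ddx4, against 2.63% of all genes, and this call was lost with no filter. The last interval had 1 higher, Gtsf1, against 0.866%, and it was kept with no filter. Gpat2, a mitochondrial protein of piRNA production, was at 384 and 317 at E18.5 and 529 on both arrays at E14.5, against 2.30 and 7.36 at E11.5, which is not above the background. E18.5 was thus at least 15.5-fold and E14.5 at least 23.5-fold above E11.5 (limma adjusted p = 5.69e-08 and 3.67e-08).

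Gtsf1, a zinc finger protein that helps PIWI proteins cut their targets, gave 928 and 1089 at E18.5 and 392 and 209 at E16.5, against 39.9 and 47.6 at E11.5. Its change was 4.10 ± 0.27 for E18.5 against E11.5 (limma adjusted p = 4.77e-07), with the E18.5 arrays above all others. Stk31, which holds a Tudor and a kinase domain, changed by 3.98 ± 0.21 (adjusted p = 7.77e-08), and its second probe set by 2.90 ± 0.24. Tex15, a partner of the PIWI protein that silences transposons in male germ cells, changed by 2.69 ± 0.23 (4.74e-06), and Btbd18, a nuclear protein that in mouse testis promotes transcription of piRNA precursors, by 2.30 ± 0.25 (3.63e-05). Morc1, a nuclear protein of transposon silencing, went the other way, with 19.5 and 3.68 at E18.5, not above the background, against 109 and 63.7 at E11.5, and was at least 3.39-fold lower at E18.5 (adjusted p = 0.0104). Wdr77, a partner of the arginine methyltransferase Prmt5 that is used in most tissues, was named after its values were seen and fell by 1.70 on the log2 scale (SE 0.25, adjusted p = 3.45e-04), but on its other 2 probe sets the changes were -1.28 ± 0.25 (past the test) and -0.46 ± 0.23 (adjusted p = 0.165).

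Of 7 Tudor domain and helicase genes that the soma uses, for E18.5 against E11.5, 0 were higher by limma, against 13.4% of all genes tested (also 0 at an unadjusted p under 0.05). In this list 2 were lower, against 16.6% of all genes. These were Lbr, a protein of the nuclear envelope, by -1.25 ± 0.21 (adjusted p = 9.33e-04) and Smn1, which assembles spliceosomal particles, by -0.71 ± 0.22 (0.0318), a call lost with no filter. Of the 9 microRNA pathway genes, 2 were higher, Drosha (1.28 ± 0.29, 0.00633) and Ago1 (0.86 ± 0.29, 0.0414), and 1 lower, Ago2 (-0.94 ± 0.24, 0.0127), against 13.4% of all genes higher and 16.6% lower, and with no filter the Ago1 call was lost. The Drosha probe sets disagreed, the other 2 changing by -0.28 ± 0.24 and 0.13 ± 0.35. So did those of Ago2, at -0.77 ± 0.24 (adjusted p = 0.0313), -0.50 ± 0.21 (0.0903) and 0.16 ± 0.34 (0.760). The median changes of these lists, -0.24 and -0.21, compare with 0.00 over all genes tested, and the difference between the lists was not tested.

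**Figure D5:**
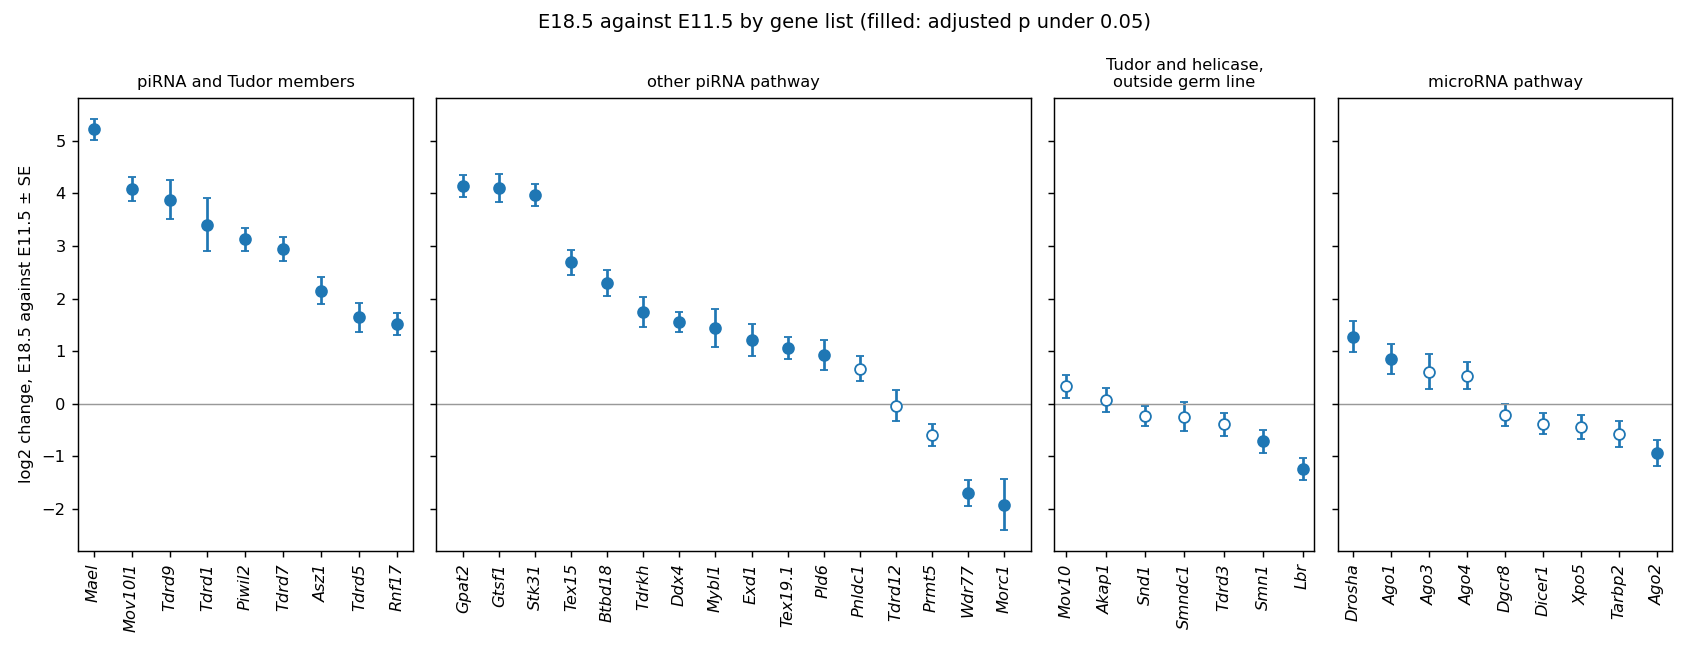
Log2 change ± SE for E18.5 against E11.5 of the lead probe set of each tested gene in 4 lists, from limma on 9 arrays (filled: adjusted p under 0.05). The 9 tested members lie between 1.52 and 5.22, the other piRNA pathway genes between -1.92 and 4.14, and both remaining lists between -1.25 and 1.28.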

How the data were processed

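The deposited table holds 1 intensity per probe set and array on a linear scale, scaled by the authors, since each array has a mean of 125 once the highest and lowest 2% are dropped. Its software is not given in the sources used here. Of 45101 probe sets 64 controls were left out, 34945 had 1 gene symbol, 932 several and 9160 none, by the platform annotation. Intensities were scaled to a common 75th percentile, 16 was added and log2 taken. Tests covered the 27510 probe sets for which 2 or more arrays reached the median of all values. The lead probe set of a gene had the highest mean over 9 arrays. Tests used limma 3.58.1 in R 4.3.3 (1 mean per stage, intensity trend, two-sided, Benjamini-Hochberg over all probe sets, threshold 0.05), and tables and figures Python 3.11.15. Changes are on the log2(signal + 16) scale, ± the standard error of the fit, and understate those of low signals. The fit was tested on simulated data. A gene not above the background on both arrays of a stage is given as a lower bound. Members and lists were chosen with earlier results of these data known. Genes named from other lists had the largest changes past the test for E18.5 against E11.5 (up to 6 of the pathway list and up to 3 of each other list). In the signal comparisons Mov10, Ddx4, Wdr77, Piwil1 and Dnmt3l were named outside this rule. Same-numbered arrays did not deviate together (correlations -0.07 to 0.04), so replicate numbers do not pair samples.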

Additional observations from a re-analysis of the deposited data

How the results depend on the processing

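Of 1112 member log2 changes recomputed under an alternative, 998 kept their direction and side of the threshold, 80 lost and 15 gained a call, and 19 changed sign, none of them past the threshold before or after (adjusted p of at least 0.854). Adding E12.5 replicate 2 (all 10 arrays) accounted for 29 of the lost calls. Member genes called then numbered 1 instead of 6 for E14.5 against E11.5, 0 instead of 2 for E16.5 against E14.5 (1 at an unadjusted p under 0.05 by limma), 0 instead of 4 for E18.5 against E16.5 (6 unadjusted), 5 instead of 9 for E18.5 against E11.5 and 5 instead of 9 in the F test. All probe sets called then numbered 74, 0 (988 unadjusted), 3, 302 and 165, instead of 1271, 841, 221, 7214 and 6696, in the same order. With no filter they numbered 831, 295 and 144 in the first 3 comparisons, and members called for E16.5 against E14.5 were 0 (3 unadjusted). With 1 added before log2 that count was 1, and in the 4 arrays of E14.5 and E16.5 alone it was 1 (451 probe sets). Leaving out 1 array gave 4 to 6, 0 to 2, 1 to 6, 8 to 9 and 8 to 9 member genes called, and 484 to 1183, 34 to 1468, 30 to 285, 3737 to 7265 and 3983 to 6166 probe sets. Tdrd1 could not be tested without either E18.5 array, since it failed the filter. Over the fits without 1 array, the E16.5 against E14.5 change spanned 0 in Mael (-0.235 to 0.0845, and 0.0837 with quantile normalization), Tdrd5 (-0.160 to 0.140, and 0.0529 as deposited), Piwil2 (-0.154 to 0.212), Asz1 1422402_a_at (-0.0659 to 0.240) and the Rnf17 probe sets 1438820_at (-0.347 to 0.0477) and 1425709_at (-0.339 to 0.0392). So did that of E18.5 against E16.5 in Rnf17 1425708_at (-0.0318 to 0.0228), and the late minus the early step in Tdrd5 (-0.0322 to 0.675) and Asz1 1422402_a_at (-0.0707 to 0.296). For Rnf17 the mean of its probe sets gave 0.0592 for E18.5 against E16.5. The cause of the sign changes and of the other losses was not tested. The replicate block gave 6, 2, 4, 9 and 9 member genes called and 1202, 791, 213, 6976 and 6429 probe sets, and changed no member call. Nor did a block for the module number in the experiment files, which could be fitted only for E14.5 or E18.5 against E11.5. Of the probe sets called, 59.2% were higher for E14.5 against E11.5 and 44.8% for E18.5 against E11.5, and 69.5% and 56.7% on values as deposited, where the median of all probe sets for E18.5 against E11.5 was 0.15 instead of 0.03. Relative to this shift the 9 tested members were still higher at E18.5 than at E11.5.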
